A study of Ciona robusta with 3 samples.

Results

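The latest-onset genes of the multipotent cardiopharyngeal progenitors are 100 genes of the tunicate Ciona robusta that were higher at 12 to 13 h post fertilization (hpf) than at 10 and 11 hpf. They were chosen from 5828 genes with at least 50 unique molecular identifiers (UMIs, each standing for 1 captured RNA molecule) at 12 and 13 hpf, out of 17822 genes in all. UMIs were summed over barcoded cells with less than 1% of their gene UMIs in 3 Myl1 copies and Smyd1, a limit that leaves out tail muscle. Levels are UMI counts scaled to the total UMIs of each sum (CPM), and the members have the largest ratio of the 12 to 13 hpf level to the higher of the 10 and 11 hpf levels, with 10 CPM added to each level. The ratios ran from 4.91 down to 1.60, against a median of 0.97 over the 5828 genes. Because these levels chose the members, they are given as a description, with no test. The last members, KY.Chr5.820 and Pxdn-KY.Chr3.1287, had ratios of 1.604 and 1.601, and the next genes, Myo18a-KY.Chr11.766 and Fat3-KY.Chr14.273, had 1.601 and 1.600.

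The time series is 1 droplet library of cells pooled from embryos of 5 to 14 hpf (10 time points). Each time point was marked by its own pair of barcoded Mesp > GFP reporters. The embryos were fertilized and electroporated at hourly intervals and collected together, so each time point is also a separate batch. The members were then read in 2 CRISPR libraries, repeats 1 and 2, labelled 12 hpf. Each repeat pools embryos given guides against Foxf, Gata4/5/6 or Foxtun4, 3 regulators of the progenitors, or given control reagents, whose target is not given for these libraries in the sources used here, and in all of them Cas9 came from the Mesp enhancer, which limits mutagenesis to the B7.5 lineage. All cells were methanol-fixed and sorted for GFP, no drug was given, and electroporated plasmids are inherited mosaically, so a sum of cells mixes mutated and intact alleles.

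The B7.5 lineage of Ciona gives rise to anterior tail muscle cells and to trunk ventral cells, which migrate as paired multipotent progenitors. These progenitors divide asymmetrically into first heart precursors and second cardiopharyngeal progenitors, which go on to heart and pharyngeal muscle. Foxf and Gata4/5/6 are transcription factors of the early progenitor program. Gene names here are matches to genes of vertebrates, so the roles given below are those known in vertebrates, and 38 members carry an identifier only.

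The time series held 238 cells and 2926758 UMIs at 10 hpf, 137 cells and 1868363 UMIs at 11 hpf, 201 cells and 2686209 UMIs at 12 to 13 hpf, and 13 cells at 14 hpf. The key from barcode pairs to time points and conditions comes from the colours of a figure, and every value per time point or condition rests on that reading. At 12 to 13 hpf all 9 progenitor markers were detected, from 77.4 CPM of Foxf to 7680 CPM of Enpp3. Of 8 tail muscle markers, Myf5 and Acta1 were at 0.74 and 1.49 CPM, but the others ran from 61.1 CPM of a Myh2 copy to 1881 CPM of Tnnt2, so the cells under the muscle limit are not free of muscle transcripts. The progenitor sums of the CRISPR libraries held 6 to 73 cells and 91315 to 1249960 UMIs. Each targeted gene was lower under its own guides in both repeats: Foxf had 540.1 and 440.01 CPM in the control and 66.4 and 144 CPM under its guides, Gata4/5/6 had 214 and 229.6 against 88.1 and 66.0 CPM, and Foxtun4 had 305 and 280.01 against 109.5 and 68.4 CPM. The repeats shared 7 cell barcodes and neither shared any with the time series. Nothing in the labels ties the repeats to separate batches of embryos, so p-values measure the spread between these sums only.

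The members were of unequal kind. For 20 of the 100, a single cell held 50% or more of all UMIs at 12 to 13 hpf, against 0.738% of the 5828 genes. These 20 genes sat in 5 cells. The cell that held 11 of them was a 12 hpf cell with 35024 UMIs, in the 99.5th percentile of depth, and it carried progenitor UMIs as well, with 125 of Enpp3, 32 of Asb2 and 9 of Nkx2-5. Its genes included the tubulin Tuba1b-KY.Chr8.1099, KY.Chr7.1017, KY.Chr2.1080, Cdcp2-KY.Chr3.1258 and KY.Chr3.182. Another cell, at 13 hpf with 14540 UMIs, held all 81 UMIs of KY.Chr1.2035 and most of those of Flvcr2-KY.Chr1.145, a heme and choline transporter, but only 1 UMI of Enpp3 and none of Asb2 or Nkx2-5. Hdhd5-KY.Chr9.1053 and KY.Chr2.889 each led in a cell of their own.

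**Figure D1:**
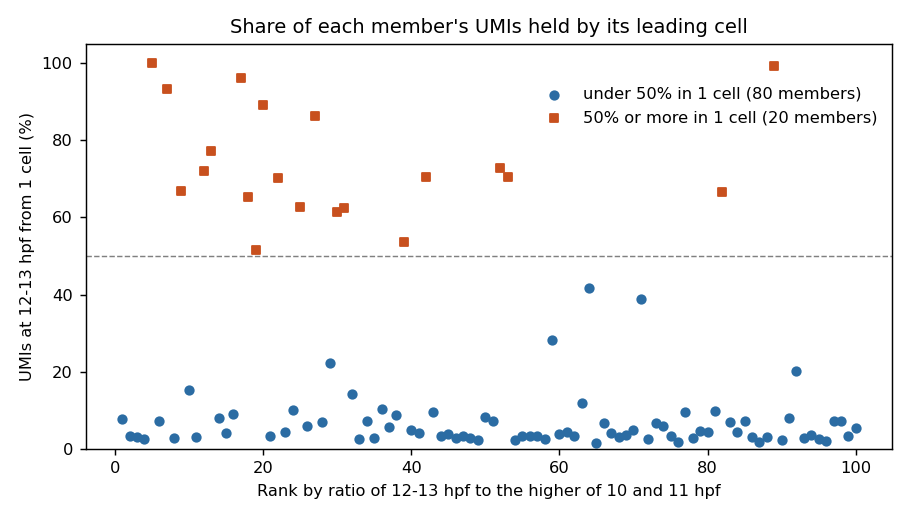
Share of each member's 12 to 13 hpf UMIs that came from its leading cell (y axis, %), against the member's rank by ratio (x axis), with 1 point per member. The dashed line marks 50%: 20 members lie at or above it (orange squares) and 80 below (blue circles).

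Without its leading cell, the median ratio of these 20 genes went from 2.57 to 1.04, and none was among the 100 largest ratios. KY.Chr7.1017 had 305, 59.9, 1585 and 116 CPM at 10, 11, 12 and 13 hpf, but 3048 CPM at 7 hpf and 4568 CPM in cells with no assigned time point. Tuba1b had 170, 87.2, 970.1 and 138 CPM at 10 to 13 hpf and 1150.2 CPM in unassigned cells. In unassigned cells, 14 of the 20 were above their own 12 to 13 hpf level, as were 13 of the other 80 (29.4% of all eligible genes). The ratios of these 20 genes therefore rest largely on their leading cells. Some of the genes were detected more widely at 12 to 13 hpf, Tuba1b in 97 cells and KY.Chr7.1017 in 43. What the leading cells are was not tested.

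The remaining 80 members are called spread over cells, since no cell held 50% of their UMIs, although the largest share was 41.7%. Their median share of cells with at least 1 UMI was 11.97% at 10 hpf, 27.4% at 11 hpf and 47.5% at 12 to 13 hpf, and their median level was 15.03, 32.1, 75.9 and 96.0 CPM at 10, 11, 12 and 13 hpf. Leaving out each gene's leading cell left the median ratio at 1.75, from 1.82, and kept 75 of the 80 as members. Most of these genes were already higher at 11 hpf than at 10 hpf, 66 of 80 against 61% of all eligible genes, and 44 of 80 were higher at each step from 10 to 13 hpf (14.5% of all). Both 12 and 13 hpf were above both earlier points in 76 of 80 (31.1% of all), which the rule largely fixes. The rule also favours a rise from 11 to 12 hpf, so the 44 of 80 are not independent of it. Between 12 and 13 hpf, 9 of 80 were at least 2-fold higher at 13 hpf (1.2% of all) and 3 at least 2-fold lower (0.824%), with 10 CPM added. Earlier in development, over the 68 cells of 5 to 9 hpf, 11 of 80 were above their 12 to 13 hpf level (52.4% of all), and 32 of 80 were above both their 10 and 11 hpf levels (50% of all). For those 32, the 10 and 11 hpf levels were both below the 5 to 9 hpf level. The counts of 11 and 32 use levels that the rule used, so their shares are not independent of the selection. The early sums also held genes typical of clusters with few barcoded cells. KY.Chr2.1158 and KY.Chr7.159 had 5358 and 2047 CPM at 7 hpf and 7438 and 3077 CPM in unassigned cells. At 12 to 13 hpf they had 99.8 and 12.7 CPM. The part of such cells in the early levels was not tested, so these need not be earlier stages of the progenitors.

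Signals and receptors made up 7 of the 100 members, of 71 such genes that were eligible, against 1.72% of all eligible genes that became members. The list of these genes was chosen with earlier results known, so the share is a description. Dkk4-KY.Chr6.644, a secreted Wnt inhibitor, had the largest ratio of all members. Its level was 72.4 CPM at 10 hpf (95% exact Poisson interval 63.0 to 82.9, which like all intervals here covers counting error only), 28.4 at 11 hpf (21.2 to 37.1), 96.0 at 12 hpf and 810.2 at 13 hpf, and 2536 at 14 hpf (2306 to 2783). Within this window the change fell between 12 and 13 hpf, where the ratio was 8.44 (7.09 to 10.09). Earlier sums held Dkk4 as well, with 144 CPM at 7 hpf, 87.2 at 8 hpf and 305 at 9 hpf, the last from 5 cells. Crim1-KY.Chr4.329, a transmembrane binder of BMPs, followed a like course, with 7.18, 0.54, 20.5, 96.9 and 502 CPM from 10 to 14 hpf. Crim1 too was in an earlier sum, with 178 CPM at 7 hpf, and which cells gave these early levels was not tested. Bmp1-KY.Chr12.303, a secreted metalloprotease, was also a 13 hpf gene, with 10 UMIs at 12 hpf and 63 at 13 hpf (ratio 8.75, 4.46 to 19.1).

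The other receptors were higher earlier. Notch4-KY.Chr6.454, a receptor for Delta and Jagged ligands, had 3.76, 53.0, 101 and 205 CPM from 10 to 13 hpf. Fzd2-KY.Chr1.766, a Wnt receptor, had 42.7, 89.9, 141 and 211 CPM, and Adgrl3-KY.Chr3.1562, an adhesion G protein-coupled receptor, had 12.3, 42.3, 134 and 165 CPM. Adra2b-KY.Chr7.246, an adrenergic receptor, was higher at 12 than at 13 hpf, with 57.0 and 32.0 CPM. Outside the list, Lpar1-KY.Chr2.2069, a lysophosphatidic acid receptor, went from 4.10 CPM at 10 hpf and 50.8 at 11 hpf to 289 at 12 hpf and 245 at 13 hpf, and Cnr1-KY.Chr2.2037, a cannabinoid receptor, from 12.3 and 31.0 to 69.2 and 181 CPM.

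Of 33 eligible candidate genes that the study took from this time series for a CRISPR screen, 6 were members: Dkk4, Notch4, Adra2b, Bmp1, Fzd2 and the transcription factor gene Pax2-KY.Chr6.685. The study chose them on these cells, so this is not independent of the ratio. The guides against Dkk4 and Notch4 are printed because Dkk4 has the largest ratio of all members and Notch4 returns in the CRISPR libraries. The forward oligos are shown 5′ to 3′, with the 20 guide bases in capitals after the lower-case cloning bases, and none of these guides was used in the libraries analysed here.
Dkk4 guide 1: agatGTGTGCGCAACAGAAACCAT
Dkk4 guide 2: agatGTTGCTGTCGAAAGTGGTAG
Dkk4 guide 3: agatGTATGGTGCTGTCTTGGACG
Notch4 guide 1: agatGGTTCTTGATGAATCTGGGA
Notch4 guide 2: agatGCATTCATAACCAGCAGCCA
Notch4 guide 3: agatGAGCTGGTGGAATTCACATG

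**Figure D2:**
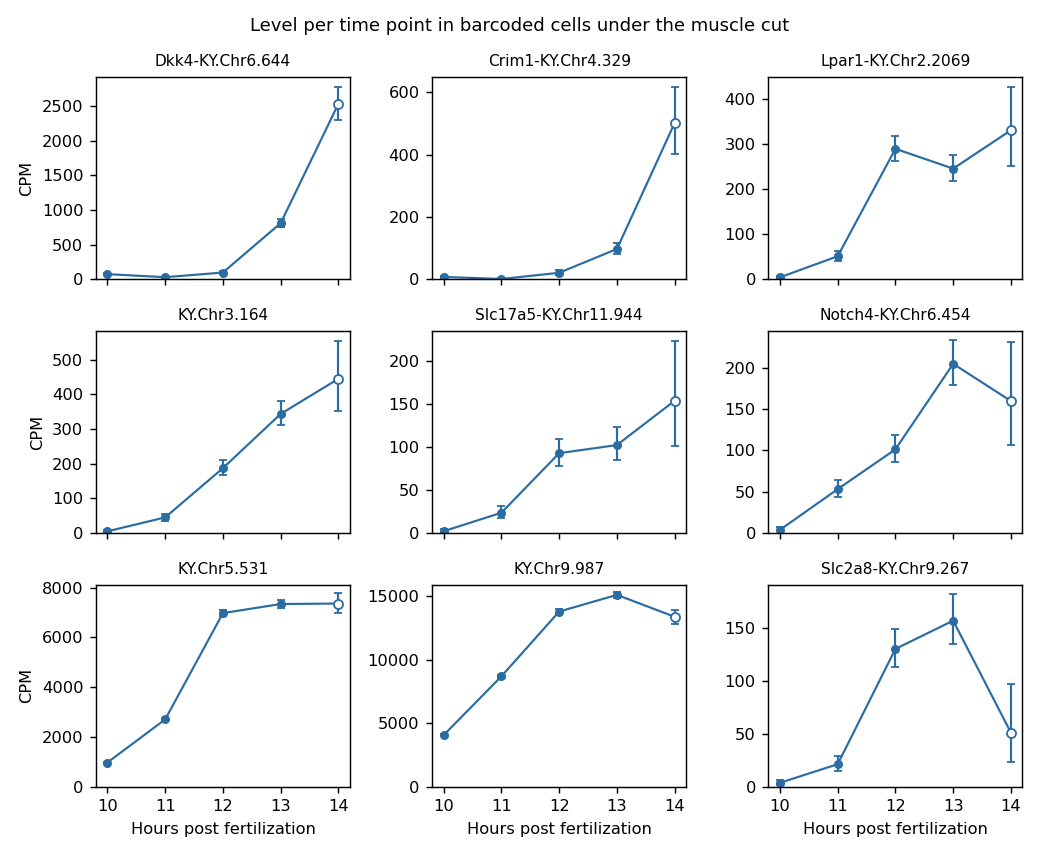
Level of 9 members (y axes, CPM) from 10 to 14 hpf (x axes), as the sum over barcoded cells under the 1% muscle limit, with bars for the 95% exact Poisson interval. Open circles mark 14 hpf, which rests on 13 cells. Dkk4 and Crim1 are low from 10 to 12 hpf and highest at 14 hpf, whereas Lpar1 and KY.Chr5.531 reach their level by 12 hpf.

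Transporters were the other group with 7 members, of 113 eligible. Slc2a8-KY.Chr9.267, a glucose transporter of intracellular membranes, had 3.76, 21.4, 131 and 157 CPM from 10 to 13 hpf. Slc6a13-KY.Chr2.1087, a GABA and taurine transporter, had 16.1, 12.85, 69.2 and 95.2 CPM, and Slc17a5-KY.Chr11.944, a lysosomal sialic acid exporter, had 2.05, 23.6, 92.8 and 102.3 CPM. Slc6a15-KY.Chr2.2138, Slc35a1-KY.Chr11.234 and Slc6a6-KY.Chr13.132, a taurine transporter, were at 96.0, 19.0 and 97.5 CPM at 12 to 13 hpf, and the mitochondrial carrier gene Slc25a33-KY.Chr1.1329 was among the 20 genes led by 1 cell. Slc35a1 and Slc6a6 were no longer members when the leading cell of each gene was left out. Slc2a8, Slc6a13, Slc6a6 and Slc6a15 were also among the members higher in tail muscle than in progenitors of the control CRISPR libraries.

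Few members belonged to the other lists. Zfhx4-KY.Chr3.191 (75.9, 114, 223 and 237 CPM from 10 to 13 hpf) and Pax2 (71.4, 87.2, 177 and 110 CPM) were the members among 115 eligible transcription factor genes. Zeb1-KY.Chr1.2461, a zinc-finger repressor outside that list, had 31.8, 14.5, 47.4 and 96.9 CPM, and 353 CPM at 14 hpf. Zeb1 was not only late: it had 178 CPM at 6 hpf and 70.8 CPM in unassigned cells. Over 5 to 9 hpf it had 94.9 CPM, above its 68.1 CPM at 12 to 13 hpf, and which cells gave these early levels was not tested. Of 27 genes of G2 and mitosis only Cdc25a-KY.Chr5.722, a phosphatase that activates cyclin-dependent kinases, was a member, with 96.0, 54.6, 151 and 181 CPM and 424 CPM at 7 hpf. Of 47 matrix and adhesion genes only Svep1-KY.UAContig27.1 was a member, and of 44 contractile genes none.

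The pair of most abundant members has no gene name. KY.Chr9.987 had 4073, 8700, 13800 and 15113 CPM from 10 to 13 hpf and was found in 97.5% of cells already at 10 hpf. KY.Chr5.531 had 975.1, 2706, 6973 and 7338 CPM, but also 1214 CPM at 8 hpf and 3910 CPM in unassigned cells. KY.Chr3.164, far lower but with the third largest ratio, had 4.78, 45.0, 187 and 343 CPM. The tubulin gene Tuba1c-KY.Chr11.227 had 364, 812, 1594 and 2333 CPM, and 1080 CPM at 7 hpf. Among enzymes, the superoxide dismutase gene Sod1-KY.Chr14.1115 had 37.6, 210, 549 and 559 CPM, Elovl4-KY.Chr1.883, which elongates very long fatty acids, had 84.1, 203, 483 and 418 CPM, and the peroxiredoxin gene Prdx2-KY.Chr8.1384 had 126, 249, 439 and 456 CPM. The histone chaperone gene Anp32b-KY.Chr3.943 had 240.2, 394, 668 and 679 CPM. Sod1, Prdx2 and Anp32b were at their 13 hpf level by 12 hpf within counting error, whereas KY.Chr3.164 and Tuba1c were higher at 13 hpf, with ratios of 1.84 (1.57 to 2.14) and 1.46 (1.39 to 1.55). For Tuba1c, 1 cell held 1139 of the 5112 UMIs at 12 to 13 hpf (22.3%). The interval does not cover this, so the ratio of Tuba1c may rest on that cell. Among less abundant members, Eva1c-KY.Chr12.937, a transmembrane protein gene, had 15.4, 14.5, 60.8 and 107 CPM, and KY.Chr7.322 had 0.34, 3.21, 26.3 and 32.9 CPM.

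Control CRISPR progenitors, although labelled 12 hpf, held these genes at lower levels than the time series at 12 to 13 hpf. The median of the 80 spread members was 20.5 CPM in repeat 1 and 28.8 CPM in repeat 2, against 15.03, 32.1 and 84.1 CPM at 10, 11 and 12 to 13 hpf. Both repeats were below the 12 to 13 hpf level in 73 of the 80 (39.6% of all eligible genes), below 11 hpf in 49 (36.2%) and below 10 hpf in 29 (30.8%). KY.Chr5.531 had 228 and 390.4 CPM in the control, below its 975.1 CPM at 10 hpf. Dkk4 had 78.9 and 116 CPM, and Crim1 no UMI in either repeat, which over both repeats allows a level of up to 1.57 CPM (3 UMIs). Over all eligible genes the median ratio of the control to the 12 to 13 hpf level was 1.04 and 1.08.

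Since the rule picked genes for a high value at 12 to 13 hpf in 1 library, a lower value in another library is no test of the labels. Foxf itself, not a member, had 535 CPM at 10 hpf, 240.3 at 11 hpf and 92.2 at 12 hpf in the time series, and 540.1 and 440.01 CPM in the control progenitors. Other progenitor markers were mixed: Enpp3 and Asb2 rose from 10 to 12 hpf, whereas Hand2 fell as Foxf did. Enpp3 had 2564, 6242 and 8007 CPM at 10, 11 and 12 hpf and 6626 and 7954 CPM in the control progenitors. Asb2 had 1754, 3530 and 3552 CPM against 2041 and 2292 CPM in the control. Hand2 had 1816, 1612 and 1021 CPM, and was higher again in the control, with 2450 and 2394 CPM. The part of developmental age in these differences was not tested, and library, experiment and the reading of the colour key cannot be told apart from it.

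**Figure D3:**
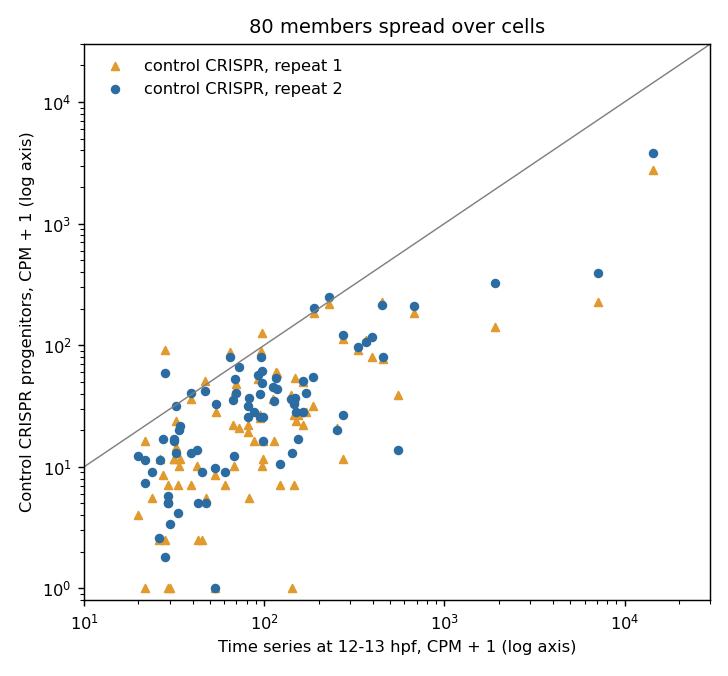
Level of the 80 spread members in control CRISPR progenitors of repeat 1 (triangles) and repeat 2 (circles), on the y axis, against the time series at 12 to 13 hpf, on the x axis, as CPM + 1 on log axes. The line marks equal levels; 73 of the 80 members have both points below it.

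The CRISPR comparisons ask which members depend on Foxf, Gata4/5/6 or Foxtun4. Of the 100 members, 59 passed the filter on low counts and were tested in progenitors, 52 of them among the 80 spread members, so the tests say nothing on the other 41. Sums of cells do not tell fewer cells with a transcript from less transcript per cell. Calls needed a log2 fold change beyond 0.5 in either direction with an adjusted p below 0.05 (edgeR quasi-likelihood test, Benjamini-Hochberg over all 6991 genes tested, n = 2 sums per condition), and ± gives the SE of the fit.

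In Foxf CRISPR progenitors KY.Chr5.531 and Hsd17b14-KY.Chr14.251 fell and Zeb1 rose. That is 2 of 59 members lower and 1 higher, against 1.230% and 0.401% of all genes tested. KY.Chr5.531 had 228 and 390.4 CPM in the control and 18.4 and 16.2 CPM in Foxf CRISPR, repeats 1 and 2. The groups did not overlap, and the log2 fold change was -4.13 ± 0.52 (adjusted p = 0.0042). Hsd17b14, a hydroxysteroid dehydrogenase gene, had 21.2 and 27.2 CPM in the control and 0 and 2.49 CPM in Foxf CRISPR, that is 48 and 2 UMIs (ratio 0.0741, 0.0087 to 0.283; log2 fold change -3.55 ± 0.76, adjusted p = 0.0454). Zeb1 had 41.0 and 52.0 CPM in the control and 129 and 133 CPM in Foxf CRISPR, without overlap (1.54 ± 0.23, adjusted p = 0.0082).

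These calls were not equally firm. That of Hsd17b14 was lost in 13 of 20 alternatives, with adjusted p from 0.00095 to 0.548, and with the repeat as a block it was 0.0789. Zeb1 lost its call without the control of repeat 1 (adjusted p = 0.172) or of repeat 2 (0.133), with DESeq2 (0.0885), and in 2 further alternatives, over a range of 0.00022 to 0.172. KY.Chr5.531 lost it in 1 of 20, where cells with up to 5% of UMIs in the muscle genes counted as progenitors (0.157, range 3.05e-30 to 0.157).

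Over all 59 tested members, the 3 called ones included, the median log2 fold change was -0.20, against 0.02 over all genes tested, with 35 members below 0 and 24 above. An unadjusted p under 0.05 was found for 16 of 59, against 9.93% of all genes. Both Foxf repeats lay below both control repeats in 20 of 59 members (25.1% of genes tested) and above them in 7 (16.5%). Over all 100 members the counts were 34 (26.7% of eligible genes) and 9 (15.2%), and whether these shares differ from the background was not tested. KY.Chr9.987 was among those above, with 2748 and 3803 CPM in the control and 5248 and 5375 CPM in Foxf CRISPR. It was not called. Cnr1 had 57.7 and 42.4 CPM in the control and 7.38 and 9.97 CPM in Foxf CRISPR (-2.34 ± 0.62, adjusted p = 0.127), and Adgrl3 53.1 and 36.0 against 7.38 and 18.7 CPM (-1.48 ± 0.50, adjusted p = 0.278). KY.Chr3.164 had 19.7 and 19.2 CPM against 0 and 2.49 CPM, 37 and 2 UMIs (ratio 0.0961, 0.0112 to 0.373; adjusted p = 0.232).

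Notch4 was too low to be tested, with 6.07 and 32.8 CPM in the control, 45 UMIs in all, and no UMI in Foxf or Gata4/5/6 CRISPR progenitors of either repeat. Taking 3 UMIs for the whole group as the floor, it was at least 8.44-fold lower in Foxf CRISPR and at least 7.29-fold lower in Gata4/5/6 CRISPR. These bounds rest on repeat 2, which holds 41 of the 45 control UMIs: in repeat 1 alone the control level is below what 3 UMIs would give in the Foxf or Gata4/5/6 sum, and no bound is left. Slc17a5, with 10.6 and 15.2 CPM in the control, likewise had no UMI in either, which gives at least 4.88-fold and 4.21-fold over both repeats and, for the same reason, no bound in repeat 1 alone (7 control UMIs). When every gene with a UMI was tested, without the filter, Notch4 and Slc17a5 were called lower in Foxf CRISPR with KY.Chr3.164, Cnr1, Sod1, KY.Chr5.545 and KY.Chr6.533 beside the 2 above, 9 members in all, while 5 were called higher (1.55% and 1.58% of the 13063 genes then tested). Dkk4 did not follow these receptors: it had 78.9 and 116 CPM in the control and 232 and 106 CPM in Foxf CRISPR, with overlapping groups (0.78 ± 0.41, adjusted p = 0.622).

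**Figure D4:**
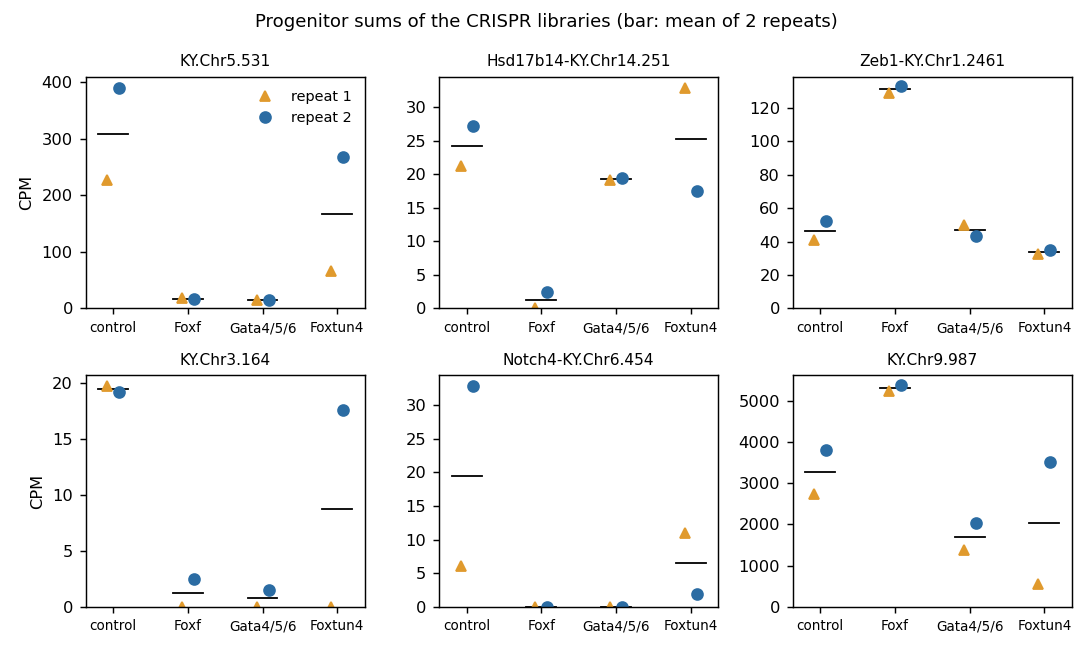
CPM of 6 members (y axes) in the progenitor sums of the control, Foxf, Gata4/5/6 and Foxtun4 CRISPR conditions, for repeat 1 (triangles) and repeat 2 (circles), with a bar at the mean of both. KY.Chr5.531 is low in both repeats of Foxf and Gata4/5/6 CRISPR, Zeb1 is highest in both repeats of Foxf CRISPR, and Notch4 has no UMI in Foxf or Gata4/5/6 CRISPR.

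Markers of other cell types differed between these sums. The 8 tail muscle markers summed to 7074 and 5857 CPM in Foxf CRISPR progenitors and 5922 and 4379 CPM in the control, with overlapping groups and none at 0 in either, and the 4 genes of the muscle limit took 0.412% and 0.337% of UMIs against 0.217% and 0.179%. The 9 progenitor markers, Foxf among them, summed to 7741 and 9469 CPM against 13896 and 15677 CPM. In Foxf repeat 1, 4 genes typical of sparsely barcoded clusters summed to 1892 CPM, against 7.47 CPM in repeat 2 and 7.59 and 38.4 CPM in the control. The mesenchyme marker KY.Chr1.2267 had 343 and 8.72 CPM in Foxf CRISPR and 135 and 89.6 CPM in the control. Without cells with 0.1% or more of their UMIs in these 4 genes, KY.Chr5.531, Hsd17b14 and Zeb1 were called as before (adjusted p = 0.000187, 0.0211 and 0.00134), and Cnr1 was called lower as well. Their part in the other values was not tested.

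Gata4/5/6 CRISPR gave 1 call among the 59 members, against 0.0429% of all genes lower and 0% higher. KY.Chr5.531 had 15.3 and 14.99 CPM against 228 and 390.4 CPM in the control (-4.35 ± 0.54, adjusted p = 0.0214), so its level was close in the Foxf and Gata4/5/6 conditions, which share these control sums. The call was lost in 6 of 20 alternatives, without either control sum (adjusted p = 0.0655 and 0.107) or either Gata4/5/6 sum (0.180 and 0.318) among them, and when cells were assigned from 1 barcode the log2 fold change was -0.24 (adjusted p = 0.999). No member was called higher with edgeR at the main settings, while 13 of 59 had an unadjusted p under 0.05 in either direction, against 3.89% of all genes. Zfhx4 had 99.6 and 78.0 CPM against 218 and 246 CPM, without overlap (-1.43 ± 0.28, adjusted p = 0.196). KY.Chr9.987 had 1371 and 2042 CPM against 2748 and 3803 CPM, without overlap, and was called lower only without the count filter. KY.Chr10.936 had 119 and 78.0 CPM against 10.6 and 10.4 CPM (3.15 ± 0.71, adjusted p = 0.356), and was called higher by DESeq2 (adjusted p = 0.04), by edgeR with a 0.5% muscle limit (0.039) and by edgeR without the count filter. It is also a gene with a higher level in muscle, and the 8 tail muscle markers summed to 7158 and 5883 CPM in Gata4/5/6 CRISPR against 5922 and 4379 CPM in the control, with overlap. The 9 progenitor markers summed to 11057 and 12758 CPM against 13896 and 15677 CPM, and the mesenchyme marker KY.Chr1.2267 had no UMI against 135 and 89.6 CPM. Their part in these values was not tested. Of the 59, 16 were lower without overlap (18.1% of genes tested) and 11 higher (17.7%). Over all 100 members, 28 were lower in both repeats without overlap (18.8% of eligible genes) and 12 higher (16.5%).

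Foxtun4 CRISPR progenitors, with 6 and 29 cells, gave no call in either direction among the 59 members with edgeR or with DESeq2. Over all 6991 genes edgeR called 0% and DESeq2 called 4 genes lower, none of them a member. Of the 59, 6 had an unadjusted p under 0.05, against 2.96% of all genes. Dkk4 had 10.95 and 17.6 CPM in Foxtun4 CRISPR against 78.9 and 116 CPM in the control (-2.54 ± 0.62, unadjusted p = 0.0019, adjusted p = 0.832). Its groups did not overlap, on 10 and 197 UMIs. KY.Chr7.1017 had 1172 CPM in repeat 2 and 10.95 CPM in repeat 1, against 18.2 and 32.8 CPM in the control, so the groups overlapped and its fitted value rests on repeat 2. Both repeats lay below both control repeats in 11 of 59 members (21.9% of genes tested) and above them in 3 (14%).

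Compared directly, Foxf and Gata4/5/6 CRISPR progenitors differed in Zeb1, which had 129 and 133 CPM in the former and 49.8 and 43.5 CPM in the latter (1.59 ± 0.25, adjusted p = 0.0162). That is 1 of 59 members higher and none lower, against 0.257% and 0.844% of all genes. The call was lost in 7 of 20 alternatives, without either control or either Gata4/5/6 sum, with DESeq2, with the 5% muscle limit and with 1 barcode, over adjusted p from 0.00038 to 0.223. Of the 59, 11 had an unadjusted p under 0.05, against 9.9% of all genes. Cnr1 had 7.38 and 9.97 CPM in Foxf CRISPR and 68.9 and 74.97 CPM in Gata4/5/6 CRISPR (-2.89 ± 0.62, adjusted p = 0.0661), and DESeq2 called it lower (adjusted p = 0.0438). KY.Chr5.531 did not differ beyond its spread, with 18.4 and 16.2 against 15.3 and 14.99 CPM. KY.Chr9.987 had 5248 and 5375 CPM in Foxf CRISPR and 1371 and 2042 CPM in Gata4/5/6 CRISPR, without overlap, and was not called.

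Tail muscle cells of the control CRISPR libraries gave a comparison that the selection did not use. Of the 100 members, 64 were tested between control progenitors and control muscle cells, 22 were lower and 24 higher in progenitors, against 25.7% and 24.6% of all 7205 genes tested. All 8 tested genes among those led by 1 cell were lower in progenitors, and of the 56 tested spread members 14 were lower and 24 higher. The other genes led by 1 cell did not pass the count filter. A gene with few UMIs in progenitors can pass it through its muscle counts only, and then only as lower. KY.Chr1.1896, for example, had 0 and 4 UMIs in progenitors and 13 and 37 in muscle. The shared direction of the 8 therefore says nothing on the 20 genes as a set. All calls in this comparison are relative to a typical gene. On a scale of total UMIs the median gene was 1.36 higher in progenitors (log2), and 15 members were then lower and 42 higher, against 9.42% and 76% of all genes. All 15 were among the 22, and KY.Chr10.160, lower by the main scaling (-0.79), was called higher (0.56).

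The members lower in progenitors than in muscle included the transporters Slc6a13, Slc2a8, Slc6a6 and Slc6a15. Slc6a15 had 81.4 and 76.9 CPM in muscle and 9.10 and 48.0 CPM in progenitors, and the others differed more. Slc6a13 had 697 and 634 CPM in muscle and 18.2 and 24.8 CPM in progenitors (-6.31 ± 0.18, adjusted p = 9.29e-15). Slc2a8 had 202 and 235 CPM against 0 and 12 CPM (-6.23 ± 0.32, adjusted p = 1.50e-11), and Slc6a6 had 631 and 543 CPM against 15.2 and 24.8 CPM (-6.20 ± 0.20, adjusted p = 2.07e-14). In the time series, the 21 muscle cells of 12 to 13 hpf had 485 CPM of Slc6a13, 469.9 of Slc2a8 and 234 of Slc6a6, so each was higher there than in the progenitors in which it was chosen. Bcat1-KY.Chr4.1189, a branched-chain aminotransferase gene, had 786 and 679 CPM in muscle against 10.6 and 20.8 CPM (-6.83 ± 0.21, adjusted p = 1.52e-14). KY.Chr3.182, led by 1 cell in the time series, differed most, with 2089 and 1728 CPM in muscle and 4.55 and 8.80 CPM in progenitors (-9.43 ± 0.25). KY.Chr10.936, KY.Chr9.1132, KY.Chr1.1896, Cdc25a and Eva1c were lower in progenitors by -6.27 to -3.64, and all of these kept the call on total UMIs. In the time series at 12 to 13 hpf, this direction did not hold for every such member. Muscle cells had 24.1 CPM of Eva1c, 100.3 of Cdc25a, 63.2 of Slc6a15 and 5.57 of KY.Chr1.1896. Progenitors had 80.04, 163.8, 96.05 and 20.8 CPM. KY.Chr10.936 was close, with 31.6 CPM in muscle and 25.3 in progenitors. KY.Chr9.1132, Bcat1 and KY.Chr3.182 were higher in muscle there too. Members were chosen on these progenitor levels, and the cause of the difference was not tested.

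Lpar1 had 10.6 and 25.6 CPM in progenitors and 0 and 0.32 CPM in muscle (4.68 ± 0.82, adjusted p = 0.000108), and Slc17a5 had 10.6 and 15.2 against 0 and 0.32 CPM (4.13 ± 0.77, adjusted p = 0.000211). The muscle counts behind these folds are 1 UMI each, with ratios of summed levels of 84.4 for Lpar1 (14.28 to 3418) and 56.3 for Slc17a5 (9.24 to 2307). KY.Chr5.435 (4.86 ± 0.76), KY.Chr5.545 (4.43 ± 0.61), KY.Chr3.164 (3.76 ± 0.76) and KY.Chr5.1043 (2.97 ± 0.59) differed likewise, and the muscle cells had at most 2.01 CPM of each. On 1, 3 and 2 muscle UMIs, the ratio was 95.2 (16.2 to 3845) for KY.Chr5.435, 62.8 (20.8 to 310.2) for KY.Chr5.545 and 40.03 (10.3 to 343) for KY.Chr3.164. Rp1-KY.Chr7.938, a microtubule-binding protein gene, Elovl4, Hsd17b14 and KY.Chr9.987 were higher by 2.47, 2.29, 2.26 and 1.80. KY.Chr5.531 had 24.1 and 56.8 CPM in muscle and was higher in progenitors (1.40 ± 0.26, adjusted p = 0.000183). The 3 members called in Foxf CRISPR were thus all higher in progenitors than in muscle, Zeb1 by only 0.78 ± 0.32 (adjusted p = 0.0479), a call that 7 alternatives did not keep.

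**Figure D5:**
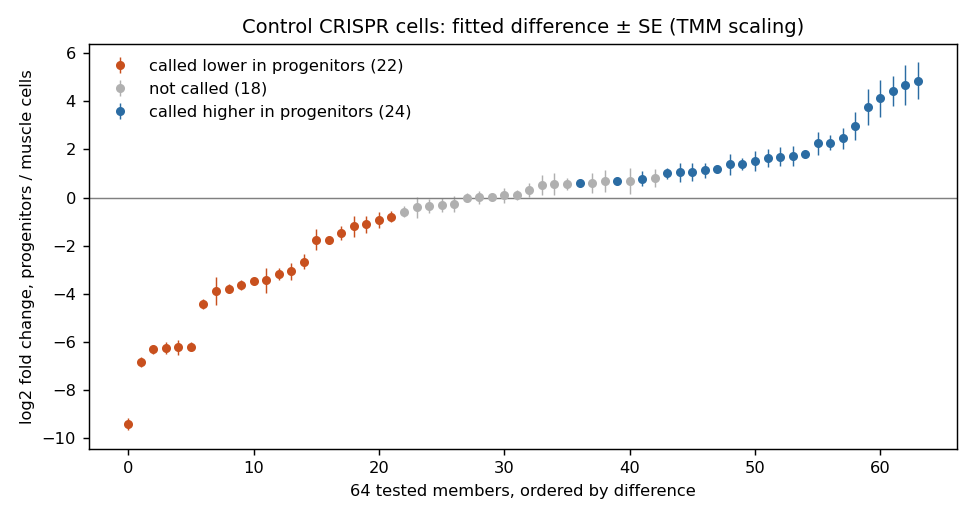
Fitted log2 fold change of control progenitors over control muscle cells (y axis) for the 64 tested members in order of the difference (x axis), with bars for the SE. Colours mark the 22 called lower in progenitors, the 24 called higher and the 18 not called. The values are relative to the median gene, and on total UMIs the median gene lies 1.36 higher.

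Membership rested on the settings of the rule to different degrees. Of the 100 members, 27 stayed in the list under all 13 alternative settings, all of them spread over cells, among them Slc2a8, KY.Chr3.164, Lpar1, Notch4, Cnr1, Adgrl3, Slc17a5, Sod1, KY.Chr5.531, Zfhx4 and Elovl4. With 12 hpf alone 60 members stayed and with 13 hpf alone 55, with a pseudocount of 50 CPM 65, and with at least 100 UMIs 65. Without the 5 cells that hold most of 20 members, 75 stayed. Dkk4, Crim1 and Zeb1 dropped out only with 12 hpf alone, and Pxdn, the last member, stayed in 4 of 13.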

How the data were processed

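Single cells sorted for Mesp > GFP were sequenced as 10x 3′ libraries, and the deposited matrices hold UMI counts that the authors made with Cell Ranger 3.0.1 on KY2019 gene models, with 21 barcode features beside 17822 genes. Cells were assigned where each barcode of a pair was seen with 1 UMI or more and 75% or more of mapped-pair UMIs came from that pair. In the time series, genes per cell lay between the 1st and the 99th percentile. Doublets were not called, and the rule on pairs leaves out cells with mixed barcodes only. UMIs of cells with less than 1% (progenitors) or at least 1% (muscle) in the muscle genes were summed per repeat and condition, with at least 5 cells per sum, and fitted with edgeR 4.0.16 (quasi-likelihood test, TMM, filterByExpr, R 4.3.3) over all genes, with Benjamini-Hochberg adjustment. DESeq2 1.42.0 was an alternative. Time points have 1 library, so they have no test.

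The members and lists were chosen with earlier results of these data known. Members were named by rank (the first 20 ratios, the 10 highest levels), as candidate or transcription factor genes, as called genes, or as the 10 largest muscle differences in each direction, and others, such as Slc35a1, Cdc25a, Prdx2 and Anp32b, were named after their values were seen. Sums of the same repeat come from the same pooled library, but their deviations from the group means correlated at -0.267 to 0.0812, so the repeat was a block only as an alternative. In a test on simulated counts for the Foxf comparison (6991 genes), 14.7% of genes changed 2-fold and 70.4% of genes changed 4-fold were called, as were 8 unchanged genes. The changed genes were drawn from all genes tested, so these shares need not hold for members with few UMIs.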

Additional observations from a re-analysis of the deposited data

How the results depend on the processing

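Of 576 values for 35 single-gene results under alternative settings, 506 kept their direction and side of the threshold, 67 lost the call and 3 changed sign: KY.Chr7.1017 (1.08 with 1 barcode) and Cdcp2 (0.27 with 1 barcode, 0.24 on total UMIs), both in progenitors against muscle. Members lower in Foxf CRISPR numbered 1 with a 2% muscle limit, 0 with 5%, 1 with 1 barcode, 9 without the count filter, 1 with DESeq2 and 4 for the list chosen with 50 CPM added, and those higher 0 with 5%, 0 with 1 barcode, 5 without the filter and 0 with DESeq2. For Gata4/5/6 CRISPR, 2 were lower with a 0.5% limit, 0 with 5%, 0 with 1 barcode, 2 without sparse-cluster cells and 7 without the filter, and 1 was higher with 0.5%, 3 without the filter and 1 with DESeq2. For Foxtun4 CRISPR, 1 was lower without the filter, and 1 was higher with 0.5% and 5 without the filter. For Foxf against Gata4/5/6, 3 were lower with 0.5%, 1 each with 1 barcode, without shared barcodes, without sparse-cluster cells and with DESeq2, and 6 without the filter, while 0 were higher with 5%, 1 barcode or DESeq2 and 3 without the filter. In progenitors against muscle, 14 spread members were lower, and 42 were higher on total UMIs and 13 with DESeq2. The causes were not tested. The alternatives without shared barcodes, without sparse-cluster cells, on total UMIs, for spread members and without the 5 cells were chosen after seeing the data.

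Leaving out 1 sum at a time gave 1 to 2 lower and 0 to 3 higher for Foxf, 0 to 2 and 0 to 1 for Gata4/5/6, 0 to 0 and 0 to 2 for Foxtun4, 0 to 1 and 0 to 2 for Foxf against Gata4/5/6, and 20 to 25 and 15 to 27 for progenitors against muscle (15 without muscle repeat 2). The lone sum is then assumed to vary like the others.

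With the repeat as a block, 1 member was lower in Foxf CRISPR, Hsd17b14 being lost, and 23 were lower and 25 higher in progenitors against muscle. It changed no other count.

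Of the selected members, 65 stayed with 50 CPM added, 65 with at least 100 UMIs, 60 with 12 hpf alone and 55 with 13 hpf alone. In the progenitor sums, 41 of 100 members were too low to test.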
